A study of Homo sapiens with 12 samples.

Results

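Hypoxia-inducible genes were followed across HCT116 and the isogenic lines Hke3 and Hkh-2. The set holds 10 genes by name, ADM, BNIP3, BNIP3L, EGLN3, P4HA1, P4HA2, CA9, NDRG1, VEGFA and DDIT4, and its members were every probe set that the platform annotation assigns to one of these symbols alone. The annotation gave 18 such probe sets for 9 of the 10 genes, among 41097 probe sets that name a single gene. CA9, a carbonic anhydrase, had none under its name and is not measured here. All 9 genes passed the filter on low values, which kept 12852 of 19775 genes. HCT116, established from a human colorectal carcinoma, carries an oncogenic RAS allele. Hke3 and Hkh-2 are its descendants, in which that allele was targeted by homologous recombination, and the labels call both lines wild type for the targeted gene, while the methods describe the mutant allele as removed. The 12 Affymetrix arrays fall into 4 groups of 3. These are HCT116 control cells given 25 ng/ml doxycycline and collected on day 3, HCT116 control cells given vehicle for the same time, Hke3, and Hkh-2, the lines being cultured in basal condition without either. All were grown in DMEM with fetal bovine serum, and no group was labelled as hypoxic. Each recombined line is a single line, so that the recombined allele, the line and its culture cannot be told apart in a comparison with HCT116. The titles of the HCT116 arrays also carry a term, left unexplained in the sources used here, that those of the lines lack. The sources do not settle whether the HCT116 control arrays are of the parental cells or of a derivative, nor whether the 3 arrays of each group represent separate cultures. The p-values thus rest on the variation from array to array, and this may be technical.

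When oxygen is plentiful, prolyl hydroxylases of the EGLN family hydroxylate the alpha subunits of hypoxia-inducible factor (HIF), and the VHL ubiquitin ligase then marks them for degradation. When oxygen falls, the alpha subunit accumulates, pairs with ARNT and binds a short DNA core, the hypoxia response element, at its target genes. The targets described here act in blood vessel growth and tone (VEGFA, ADM), removal of mitochondria (BNIP3, BNIP3L), collagen maturation (P4HA1, P4HA2), restraint of mTOR signalling (DDIT4), stress response and differentiation (NDRG1) and feedback on HIF itself (EGLN3). Several of these genes also answer to signals other than oxygen.

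Values are log2 intensities normalized by RMA, and a difference of 1 is a factor of 2. Group means below 6 were treated as near background. Array medians lay between 5.80 and 5.86, and arrays of a group correlated across probe sets with r from 0.993 to 0.998. The arrays that stood apart within their groups were replicate 2 of HCT116 vehicle and replicate 3 of Hke3, whose deviations from the group means correlated across genes with r = 0.683. A measure of RNA integrity moved with the lines. The 5′ minus the 3′ signal of the actin control ran from -0.94 to -0.48 in the HCT116 arrays and from -0.58 to -0.23 in the arrays of the recombined lines, whereas that of the GAPDH control overlapped throughout, from -0.03 to 0.09 in HCT116 and from -0.03 to 0.11 in the lines. Its part in the results below was not tested. All 8 epithelial markers were above 6 in every group, with EPCAM at 13.1 in both HCT116 groups, 13.2 in Hke3 and 13.2 in Hkh-2, while the intestinal markers CDX2 and VIL1 were low, at 6.45 to 6.89. The leukocyte marker PTPRC, the endothelial marker CDH5 and the fibroblast marker LUM were near background in every group, with means of at most 4.13. Of 6 fibroblast, 5 endothelial and 5 leukocyte markers, 3, 2 and 2 reached 6 in at least 1 group, and the fibroblast collagen COL3A1 did so in Hkh-2 alone, at 6.73. The brightest marker of each list was above 6 in every group, COL1A1 at 8.19 to 8.43, PECAM1 at 6.56 to 6.86 and CD79A at 7.68 to 7.92. COL1A1 and CD79A thus lay above CDX2 and VIL1. The epithelial markers went in both directions, with 2 of the 8 lower (CDH1 -0.83, KRT19 -0.53) and 2 higher (KRT18 0.20, CDX2 0.44) in HCT116 than in Hke3, and 4 lower than in Hkh-2, CDH1 (-1.17) and KRT19 (-0.64) among them. The endothelial PECAM1 was higher than in Hke3 (0.24) and Hkh-2 (0.29).

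Most of the measured hypoxia-inducible genes were lower in HCT116 than in the recombined lines, and DDIT4 was higher. Against Hke3, 6 of the 9 genes were lower in vehicle-treated HCT116 and 1 was higher at an adjusted p under 0.05 (limma), where 23.2% of all genes tested were lower and 24.6% higher. Against Hkh-2, 6 were lower and 2 higher, where 21.7% of all genes were lower and 14.3% higher. Both comparisons use the same vehicle arrays. ADM, BNIP3, BNIP3L, EGLN3, P4HA1 and P4HA2 were lower in HCT116 than in each line, and DDIT4 was higher than in each. Over all genes 12.6% were lower in both comparisons and 9.04% higher in both. The median log2 fold change of the 9 genes was -0.45 against Hke3 and -0.36 against Hkh-2, and that of all genes tested was 0.04 and -0.02. RNA came from whole cultures, so fewer expressing cells and less RNA per cell cannot be told apart.

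**Figure D1:**
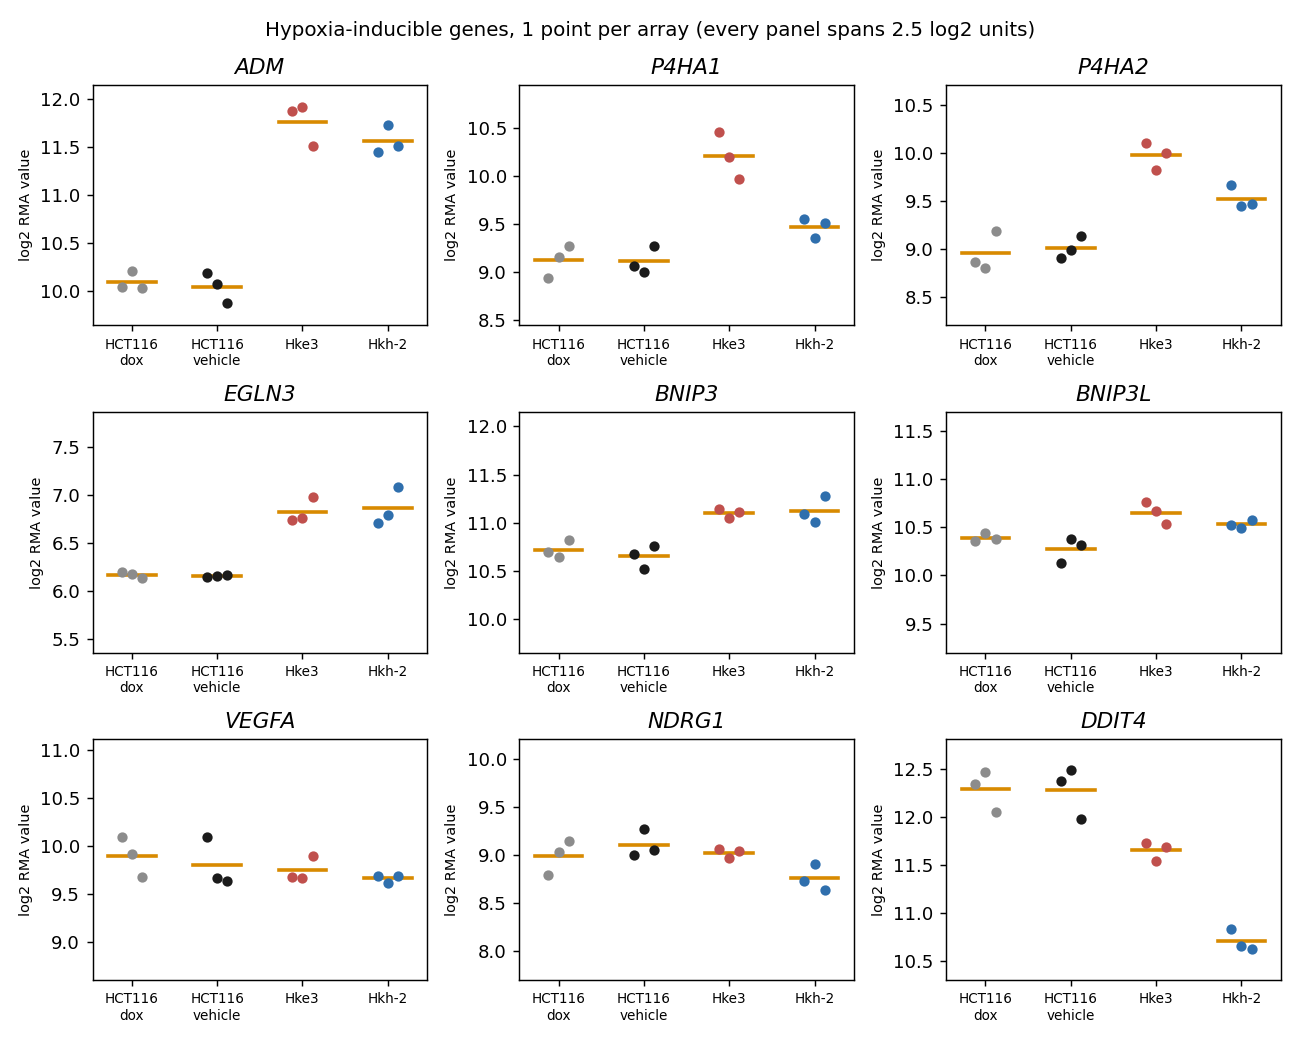
Log2 RMA value (vertical axes) of the 9 measured hypoxia-inducible genes, each shown by its brightest probe set, in HCT116 with doxycycline, HCT116 with vehicle, Hke3 and Hkh-2. Points are single arrays, 3 per group, and bars are group means. In the upper 6 panels the vehicle arrays lie below all arrays of both lines, and for DDIT4 they lie above them. The share of all genes whose arrays separate in this way is not given here.

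No difference was detected between doxycycline and vehicle. Of all genes tested 0% (0 of 12852) passed the threshold in limma, with 127 genes and 0 of the 9 members at an unadjusted p under 0.05. These 127 genes are fewer than the share of 0.05 that would be found without any difference, so this test may miss small effects. The fit did not use the pairing of vehicle and doxycycline arrays, and the part of the pairing in the low number was not tested. The differences of the 9 genes between doxycycline and vehicle ran from -0.12 for NDRG1 to 0.12 for BNIP3L. The count over all genes also stayed at 0 in every alternative fit in which it was computed. These include a fit with the replicate number as a block over all 12 arrays, although Hke3 and Hkh-2 share only numbers with HCT116. A paired fit of the vehicle and doxycycline arrays alone was not run. With the doxycycline arrays standing for HCT116, a choice made after seeing the data, the same 6 genes were lower than in Hke3 and 5 of them lower than in Hkh-2, BNIP3L being the exception. Over all genes, 2817 of 12852 were then lower than in Hke3 and 2792 lower than in Hkh-2.

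**Figure D2:**
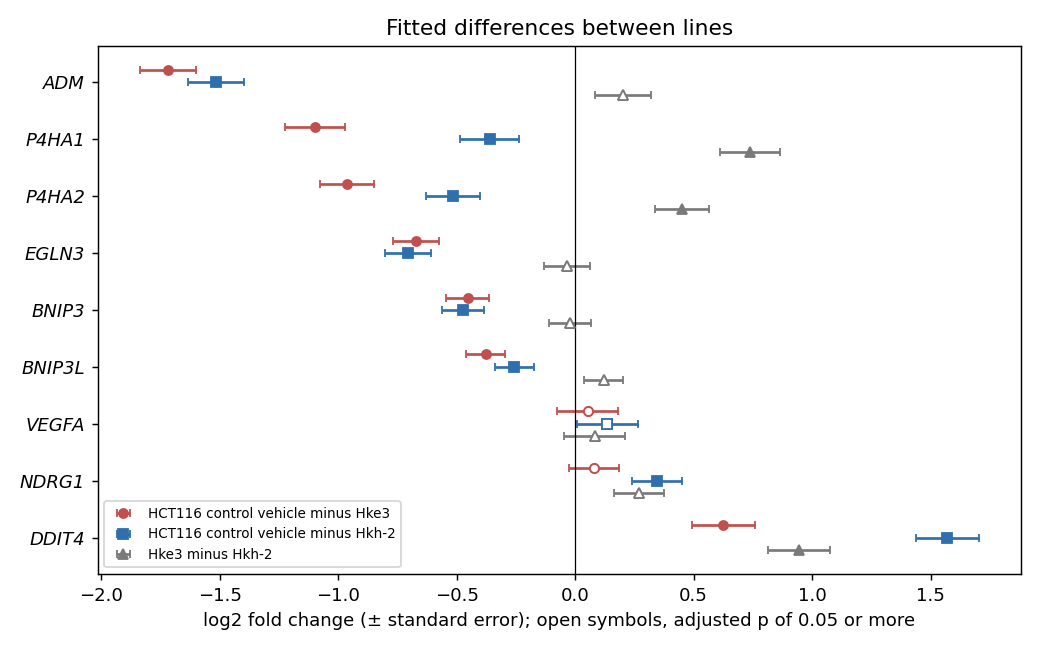
Log2 fold change (horizontal axis) of each gene for HCT116 vehicle minus Hke3 (red circles), HCT116 vehicle minus Hkh-2 (blue squares) and Hke3 minus Hkh-2 (grey triangles). Bars are standard errors from limma over 12 arrays, and open symbols did not pass an adjusted p of 0.05. ADM lies farthest to the left, at -1.72 and -1.52 against the 2 lines, and DDIT4 farthest to the right, at 1.57 against Hkh-2.

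To show what the gene starts look like, promoter windows were read from RefSeq (GRCh38.p14), each reaching from 250 bases before to 50 bases after an annotated start. Both strands were searched for the 5-base core of the hypoxia response element, ACGTG or GCGTG. Such a core is common, being present in 48.4% of all 35116 windows, and in 5 of the 7 windows found for the 10 genes. EGLN3 and P4HA2 had no match, and the window of P4HA2 is set on a start site inside the annotated gene. The windows of 4 genes are printed in lower case with matches in capitals, for ADM, which lay farthest below both lines, for P4HA1, which is the member with the largest gap below Hke3 after ADM, for BNIP3 with the most matches, and for DDIT4, which moved the other way. A capital CACGT or CACGC is the core read on the opposite strand. ADM (chr11:10304823-10305122, plus strand) has 1 match, starting 101 bases before the gene start, and P4HA1 (chr10:73096817-73097116, minus strand) has 1 at 86 bases before it. BNIP3 (chr10:131981874-131982173, minus strand) has 6 matches between 143 and 104 bases before the start, of which 2 are both strands of a single CACGTG. DDIT4 (chr10:72273674-72273973, plus strand) has 4, at 219, 125 and 53 bases before and 25 bases after the start. At least 3 matches are found in 10.1% of all windows. Genes with matches thus stand on both sides, lower in HCT116 (ADM, P4HA1, BNIP3) and higher (DDIT4), and a match in these letters does not show that HIF binds there.
ADM: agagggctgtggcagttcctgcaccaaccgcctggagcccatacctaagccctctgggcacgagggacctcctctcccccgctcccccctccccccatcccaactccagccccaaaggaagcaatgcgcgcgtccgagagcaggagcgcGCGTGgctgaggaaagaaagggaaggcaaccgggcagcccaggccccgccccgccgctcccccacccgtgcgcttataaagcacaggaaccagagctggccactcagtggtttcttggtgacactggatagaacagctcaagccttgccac
P4HA1: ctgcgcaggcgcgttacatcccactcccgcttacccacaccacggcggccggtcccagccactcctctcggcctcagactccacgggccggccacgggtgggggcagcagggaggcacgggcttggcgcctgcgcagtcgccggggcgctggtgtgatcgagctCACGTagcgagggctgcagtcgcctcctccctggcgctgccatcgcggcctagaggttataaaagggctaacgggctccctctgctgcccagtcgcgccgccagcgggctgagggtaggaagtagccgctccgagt
BNIP3: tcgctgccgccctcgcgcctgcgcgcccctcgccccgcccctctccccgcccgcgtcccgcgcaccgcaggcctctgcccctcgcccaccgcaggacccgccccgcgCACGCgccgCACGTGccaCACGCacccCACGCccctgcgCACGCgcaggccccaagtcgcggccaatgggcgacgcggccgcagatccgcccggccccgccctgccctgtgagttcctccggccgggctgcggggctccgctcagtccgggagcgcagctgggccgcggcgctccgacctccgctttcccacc
DDIT4: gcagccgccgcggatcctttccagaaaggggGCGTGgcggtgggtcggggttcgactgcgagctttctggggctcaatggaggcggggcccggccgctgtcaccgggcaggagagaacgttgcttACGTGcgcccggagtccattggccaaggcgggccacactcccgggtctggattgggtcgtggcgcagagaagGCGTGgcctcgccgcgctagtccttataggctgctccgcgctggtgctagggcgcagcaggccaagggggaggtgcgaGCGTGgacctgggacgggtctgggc

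ADM encodes adrenomedullin, a secreted peptide that widens blood vessels, and lay farthest below both lines among the 9 genes. Its probe set read 10.05, 10.22 and 10.04 in HCT116 with doxycycline and 10.19, 10.07 and 9.88 with vehicle, against 11.87, 11.91 and 11.51 in Hke3 and 11.45, 11.73 and 11.51 in Hkh-2. Every HCT116 array lay more than 1 log2 unit below every array of the lines. The vehicle mean was 3.29-fold below that of Hke3 (log2 fold change -1.72, SE 0.12, adjusted p = 1.36e-07, limma) and 2.86-fold below that of Hkh-2 (-1.52, SE 0.12, adjusted p = 4.90e-07). In the fit with all arrays Hke3 and Hkh-2 differed by 0.20 (adjusted p = 0.197) with overlapping arrays. Without Hke3 replicate 3 ADM was 0.33 higher in Hke3 than in Hkh-2 (adjusted p = 0.0223). The adrenomedullin receptor is built from CALCRL with RAMP2 or RAMP3. CALCRL was near background throughout, with a highest group mean of 5.23. RAMP2 was also near background throughout, at 5.80 to 5.92. RAMP3 averaged 5.773 to 6.045 and passed against neither line (0.17, SE 0.11, adjusted p = 0.206 against Hke3, and 0.27, SE 0.11, adjusted p = 0.0685 against Hkh-2). RAMP1, a relative that is not part of this receptor, averaged 7.87 in HCT116 with vehicle, 9.84 in Hke3 and 7.62 in Hkh-2. RAMP1 was lower in HCT116 than in Hke3 (-1.97, SE 0.11, adjusted p = 1.20e-08) and did not pass against Hkh-2 (0.25, SE 0.11, adjusted p = 0.0858). The RAMP genes are named here after their values were seen.

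P4HA1 and P4HA2, the catalytic alpha subunits of collagen prolyl 4-hydroxylase, differed by line in the same order, with Hke3 highest, Hkh-2 between and HCT116 lowest. P4HA1 read 8.94, 9.16 and 9.28 with doxycycline and 9.06, 9.00 and 9.27 with vehicle in HCT116, against 10.46, 10.20 and 9.98 in Hke3 and 9.55, 9.36 and 9.51 in Hkh-2. Hke3 did not overlap with any other group, and HCT116 came close to Hkh-2. The vehicle mean was 2.14-fold below Hke3 (-1.10, SE 0.13, adjusted p = 1.39e-05) and 1.28-fold below Hkh-2 (-0.36, SE 0.13, adjusted p = 0.0396). The difference from Hkh-2 lay near the threshold. Leaving out each array kept it between -0.44 and -0.30, but it missed the threshold without vehicle replicate 1 or 2, Hkh-2 replicate 1 or 3, or doxycycline replicate 2, with adjusted p-values between 0.0534 and 0.120. P4HA2 read 8.87, 8.81 and 9.20 with doxycycline and 8.91, 9.00 and 9.14 with vehicle, against 10.11, 9.82 and 10.00 in Hke3 and 9.67, 9.45 and 9.47 in Hkh-2. No HCT116 array reached the lowest array of a line. P4HA2 was 1.95-fold below Hke3 (-0.96, SE 0.11, adjusted p = 1.82e-05) and 1.43-fold below Hkh-2 (-0.51, SE 0.11, adjusted p = 0.00322). Between the lines, Hke3 was above Hkh-2 by 0.74 for P4HA1 (adjusted p = 5.15e-04) and by 0.45 for P4HA2 (adjusted p = 0.00713). PLOD2, a lysyl hydroxylase that also modifies collagen, had the same order, at 9.00 in HCT116 with vehicle, 10.2 in Hke3 and 9.75 in Hkh-2, and was lower in HCT116 by both tests (-1.22, SE 0.09, adjusted p = 2.17e-07 against Hke3, and -0.76, SE 0.09, adjusted p = 2.19e-05 against Hkh-2). P4HB, the beta subunit of the same enzyme, passed the threshold against neither line (0.23, SE 0.14, adjusted p = 0.204 and -0.15, SE 0.14, adjusted p = 0.465), and was named here after its values were seen.

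EGLN3 is an oxygen-dependent prolyl hydroxylase of the HIF alpha subunits and itself a HIF target. Its brighter probe set read 6.20, 6.18 and 6.14 with doxycycline and 6.14, 6.16 and 6.16 with vehicle in HCT116, against 6.74, 6.75 and 6.98 in Hke3 and 6.71, 6.79 and 7.08 in Hkh-2. All HCT116 arrays stood just above the background level of 6 and below every array of the lines. The vehicle mean was 1.59-fold below Hke3 (-0.67, SE 0.10, adjusted p = 1.01e-04) and 1.63-fold below Hkh-2 (-0.70, SE 0.10, adjusted p = 8.54e-05), with no difference detected between the lines (-0.03, SE 0.10, adjusted p = 0.817). The second EGLN3 probe set was dimmer, with 4.80, 5.26 and 5.51 with doxycycline, 5.09, 5.29 and 5.24 with vehicle, 6.15, 6.38 and 6.10 in Hke3 and 5.32, 5.83 and 5.94 in Hkh-2, so that only Hke3 had a mean above background. Counted from the background level, HCT116 was at least 0.21 log2 units below Hke3 by this probe set (adjusted p = 6.19e-04).

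BNIP3 and BNIP3L sit on the outer mitochondrial membrane and mark mitochondria for autophagy. BNIP3 read 10.70, 10.64 and 10.82 with doxycycline and 10.67, 10.52 and 10.76 with vehicle in HCT116, against 11.15, 11.05 and 11.11 in Hke3 and 11.09, 11.01 and 11.28 in Hkh-2. The HCT116 arrays were below all arrays of the lines by a small margin. BNIP3 was 1.37-fold below Hke3 (-0.45, SE 0.09, adjusted p = 0.00112) and 1.39-fold below Hkh-2 (-0.47, SE 0.09, adjusted p = 0.00107), with no difference detected between the lines (-0.02, SE 0.09, adjusted p = 0.881). BNIP3L read 10.36, 10.44 and 10.38 with doxycycline and 10.13, 10.38 and 10.31 with vehicle, against 10.76, 10.66 and 10.53 in Hke3 and 10.52, 10.50 and 10.57 in Hkh-2. Here the gap between HCT116 and Hkh-2 was about as wide as the spread within vehicle. BNIP3L was 1.30-fold below Hke3 (-0.38, SE 0.08, adjusted p = 0.00227) and 1.19-fold below Hkh-2 (-0.26, SE 0.08, adjusted p = 0.0272). The second of these calls was lost without vehicle replicate 1 (adjusted p = 0.123) or without any 1 of the Hkh-2 arrays (0.0528 to 0.0880), and with the doxycycline arrays in place of vehicle (-0.14, adjusted p = 0.209). FUNDC1, another receptor for mitochondrial autophagy, was also lower in HCT116 than in Hke3 (-0.52, SE 0.08, adjusted p = 2.03e-04) and Hkh-2 (-0.29, SE 0.08, adjusted p = 0.0132).

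DDIT4, also known as REDD1, restrains mTOR complex 1 through the TSC1 and TSC2 proteins. With each gene taken by its brightest probe set, DDIT4 was the only one of the 9 that was higher in HCT116 than in both lines. It read 12.34, 12.47 and 12.06 with doxycycline and 12.37, 12.49 and 11.98 with vehicle, against 11.73, 11.55 and 11.69 in Hke3 and 10.84, 10.66 and 10.63 in Hkh-2. The 4 groups formed 3 levels without overlap, HCT116, then Hke3, then Hkh-2. The vehicle mean was 1.54-fold above Hke3 (0.62, SE 0.13, adjusted p = 0.00188) and 2.97-fold above Hkh-2 (1.57, SE 0.13, adjusted p = 1.03e-06). Hke3 was 0.95 above Hkh-2 (SE 0.13, adjusted p = 1.16e-04), so that Hke3 was the higher line for DDIT4 as for P4HA1 and P4HA2. Of the DDIT4 partners, which are named here after their values were seen, TSC2 was higher in HCT116 than in Hke3 (0.92, SE 0.21, adjusted p = 0.00293) and did not pass against Hkh-2 (-0.02, SE 0.21, adjusted p = 0.948), and TSC1 passed against neither (0.07, SE 0.07, adjusted p = 0.400 and -0.18, SE 0.07, adjusted p = 0.0584).

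VEGFA, the main growth factor of blood vessels, and NDRG1, a stress-induced cytoplasmic protein, each by its brightest probe set, did not pass the test against Hke3. VEGFA read 10.10, 9.91 and 9.68 with doxycycline and 10.10, 9.67 and 9.63 with vehicle in HCT116, against 9.68, 9.66 and 9.89 in Hke3 and 9.68, 9.62 and 9.69 in Hkh-2. All 4 groups overlapped, and the differences did not pass the test (0.05, SE 0.13, adjusted p = 0.756 against Hke3, and 0.14, SE 0.13, adjusted p = 0.451 against Hkh-2). Of the VEGFA receptors, KDR was near background in every group, at 3.51 to 3.66. FLT1 averaged 7.22 to 7.40 and passed against neither line (0.05, SE 0.09, adjusted p = 0.669 against Hke3, and 0.09, SE 0.09, adjusted p = 0.473 against Hkh-2). The co-receptor NRP1 was near background in every group, and NRP2 averaged 6.50 to 6.67. NDRG1 read 8.80, 9.03 and 9.14 with doxycycline and 9.00, 9.27 and 9.05 with vehicle, against 9.07, 8.97 and 9.05 in Hke3 and 8.73, 8.91 and 8.64 in Hkh-2. HCT116 and Hke3 overlapped, and Hkh-2 was below the vehicle arrays but overlapped with doxycycline. NDRG1 was 1.27-fold higher in vehicle than in Hkh-2 (0.35, SE 0.11, adjusted p = 0.0210) and did not pass against Hke3 (0.08, SE 0.11, adjusted p = 0.558). Leaving out vehicle replicate 2, Hkh-2 replicate 1 or Hkh-2 replicate 3 ended the call against Hkh-2 (adjusted p from 0.0613 to 0.0912), as did the doxycycline arrays in place of vehicle (0.106).

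Between the recombined lines, 3 of the 9 genes differed, P4HA1, P4HA2 and DDIT4, each higher in Hke3. Over all genes tested, 16.3% were higher in Hke3 than in Hkh-2 and 23.5% lower, and 0 of the 9 members were lower at the threshold in limma. At an unadjusted p under 0.05 (limma) there were 4 members, all higher in Hke3. Of all 12852 genes tested, 6181 had an unadjusted p under 0.05 in this comparison, in either direction. Among the members, BNIP3 and EGLN3 had the only negative values, -0.02 and -0.03. The median of the 9 genes was 0.20 and that of all genes -0.06. With both arrays that stood apart left out, ADM and BNIP3L were higher in Hke3 too, which made 5. Calls rose over all genes as well, from 2100 of 12852 higher in Hke3 with all arrays to 2946 of 12854. Ordered by group means, ADM, P4HA1, P4HA2 and BNIP3L were highest in Hke3, and BNIP3 and EGLN3 in Hkh-2 by less than the spread between arrays. DDIT4 and VEGFA were highest in HCT116 with doxycycline and NDRG1 in HCT116 with vehicle, in no case apart from the other HCT116 group.

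Probe sets of one gene pointed the same way in the genes that were lower in HCT116, but with unequal sizes. In a fit over 23516 probe sets, the second probe sets of BNIP3 (-0.29, adjusted p = 0.00379), BNIP3L (-0.54, adjusted p = 0.00420) and P4HA2 (-0.85, adjusted p = 3.61e-05) were lower than in Hke3. Against Hkh-2 they had the same sign without passing the threshold, at -0.15 (adjusted p = 0.103), -0.25 (adjusted p = 0.149) and -0.28 (adjusted p = 0.0580), so that for these 3 genes the difference from Hkh-2 rests on 1 probe set each. For EGLN3 the second probe set placed Hke3 at least 0.21 above Hkh-2, where the brighter one gave -0.03 (adjusted p = 0.822). For the second one the adjusted p = 0.0388 (limma) belongs to the fitted difference of 0.52, and Hke3 alone carried it past the filter. For VEGFA, all 4 probe sets had the same sign, higher in HCT116, and they divided only at the threshold. Its second brightest probe set read 8.26, 8.20 and 7.98 with doxycycline and 8.27, 8.49 and 7.95 with vehicle, against 7.86, 7.72 and 7.98 in Hke3 and 7.97, 7.90 and 7.74 in Hkh-2. By it VEGFA was higher in HCT116 than in Hke3 (0.38, SE 0.13, adjusted p = 0.0294) and Hkh-2 (0.37, SE 0.13, adjusted p = 0.0435), although vehicle replicate 3 overlapped with both lines. The other 3 VEGFA probe sets did not pass, with differences between 0.05 and 0.22. Of the 18 probe sets, 1 of P4HA1 and 1 of P4HA2 were near background in every group and were not tested. ADM is covered by a single probe set, and DDIT4, NDRG1, P4HA1, EGLN3 and VEGFA were measured above background only by probe sets that the array design marks as matching several transcripts.

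**Figure D3:**
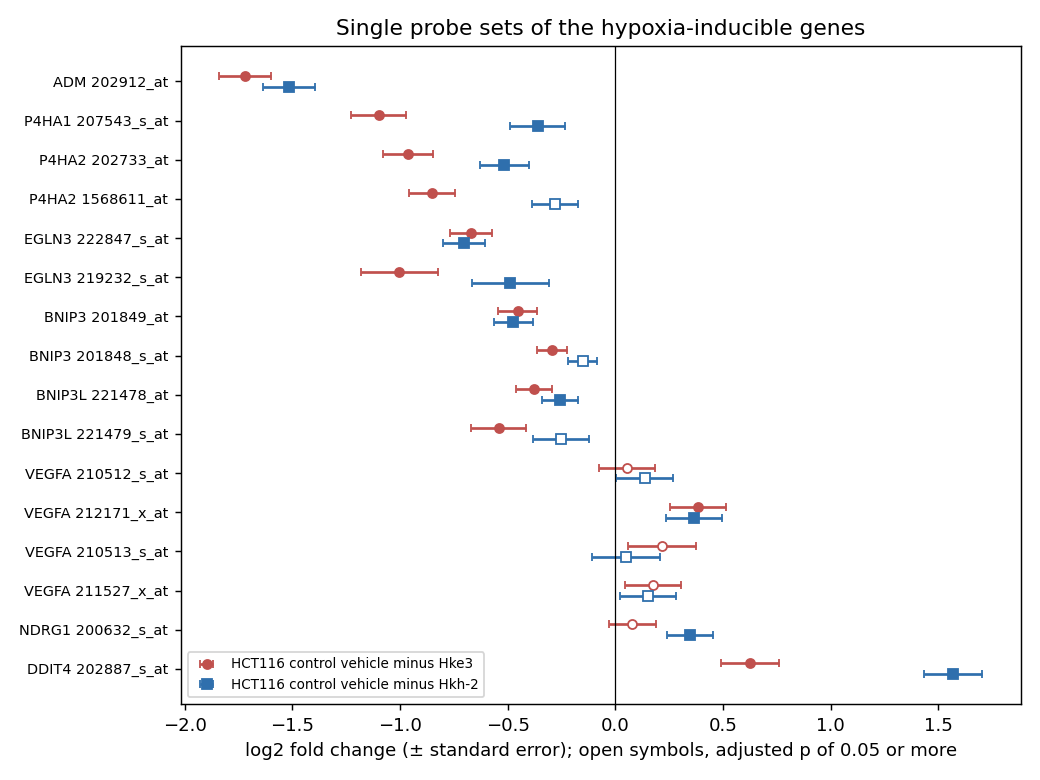
Log2 fold change (horizontal axis) of the 16 member probe sets above background, for HCT116 vehicle minus Hke3 (red circles) and HCT116 vehicle minus Hkh-2 (blue squares). Bars are standard errors from a limma fit over 23516 probe sets, and open symbols did not pass an adjusted p of 0.05. All probe sets of ADM, P4HA1, P4HA2, EGLN3, BNIP3 and BNIP3L lie left of 0, and of the 4 VEGFA probe sets only the second brightest has filled symbols.

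The machinery that senses oxygen was measured with a list of 16 genes, of which 15 were tested. Against Hke3, 5 were lower in HCT116 and no other passed the threshold, and against Hkh-2, 4 were lower and 2 higher. Over all genes, 23.2% were lower and 24.6% higher than in Hke3, and 21.7% were lower and 14.3% higher than in Hkh-2. The counts against Hkh-2 were thus near the share over all genes. Lower in both comparisons were 3 genes. HIF1A, the alpha subunit itself, averaged 12.4 with doxycycline and 12.3 with vehicle, 13.1 in Hke3 and 12.6 in Hkh-2 (-0.80, SE 0.08, adjusted p = 3.03e-06 against Hke3, and -0.32, SE 0.08, adjusted p = 0.00613 against Hkh-2). CITED2, which competes with HIF for its coactivators, differed most from Hkh-2 (-1.23, SE 0.11, adjusted p = 1.62e-06, and -0.42, SE 0.11, adjusted p = 0.00669 against Hke3). The coactivator CREBBP was also lower (-0.46 against Hke3 and -0.42 against Hkh-2, SE 0.12, adjusted p = 0.00636 and 0.0134). EPAS1, which encodes the other main alpha subunit, did not pass against either line (-0.16 and -0.09, SE 0.08, adjusted p = 0.126 and 0.419), nor did VHL (0.21 and 0.28, SE 0.21, adjusted p = 0.446 and 0.328), EGLN1 (0.17 and -0.15, SE 0.08, adjusted p = 0.0914 and 0.180) or HIF1AN, an asparagine hydroxylase of HIF (0.03 and -0.03, SE 0.09, adjusted p = 0.763 and 0.846). ARNT, the shared beta subunit, was higher in HCT116 than in Hkh-2 (0.40, SE 0.08, adjusted p = 0.00247) and did not pass against Hke3 (0.11, SE 0.08, adjusted p = 0.322). EGLN2 was near background in all groups, with a highest mean of 5.21. These are mRNA levels. HIF alpha is controlled mainly at the protein level, which the arrays do not measure.

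Other known HIF targets differed in both directions. Of 25 tested genes in a mixed list of 32 targets, 12 were lower and 10 higher in HCT116 than in Hke3, 3 were lower and 5 higher than in Hkh-2, and 3 were lower and 3 higher in both comparisons. All genes gave 23.2% lower and 24.6% higher against Hke3, 21.7% and 14.3% against Hkh-2, and 12.6% and 9.04% in both. Only the genes of this list called in both comparisons at once came near these shares. Against Hke3 the list lay above them in both directions. Against Hkh-2 it lay below the share of lower genes and somewhat above that of higher genes. The 3 lower ones were HMOX1, which degrades heme (-1.60, SE 0.16, adjusted p = 4.82e-06 and -1.33, SE 0.16, adjusted p = 3.23e-05), the mitochondrial adenylate kinase AK4 (-0.93, SE 0.10, adjusted p = 7.17e-06 and -0.62, SE 0.10, adjusted p = 3.15e-04), and ERO1A, an oxidase of protein folding in the endoplasmic reticulum (-0.67, SE 0.08, adjusted p = 2.02e-05 and -0.61, SE 0.08, adjusted p = 5.99e-05). Of the 3 higher ones the secreted glycoprotein STC2 differed most (0.94, SE 0.22, adjusted p = 0.00306 and 0.65, SE 0.22, adjusted p = 0.0310), followed by the MYC antagonist MXI1 and the sugar phosphate enzyme PGM1, both named after their values were seen. Of 23 tested relatives and partners of the 9 genes, 5 were lower and 5 higher than in Hke3, 2 were lower and 2 higher than in Hkh-2, and 2 (PLOD2 and FUNDC1) were lower in both. HIF targets of glucose use, of which 19 were tested, had 3 lower and 5 higher against Hke3 and 3 lower and 2 higher against Hkh-2. In both comparisons the glucose transporter SLC2A1 was higher (1.66 and 1.37, SE 0.11, adjusted p = 7.49e-08 and 4.99e-07), as was the aldolase ALDOC (0.35 and 0.71, SE 0.13, adjusted p = 0.0447 and 0.00107), and ALDOA was lower (-0.42 and -0.61, SE 0.13, adjusted p = 0.0169 and 0.00260). The median difference of each of these 4 lists lay between -0.15 and 0.12 in both comparisons, against -0.45 and -0.36 for the 9 genes. These lists and the 9 genes were chosen with earlier results of these data known.

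**Figure D4:**
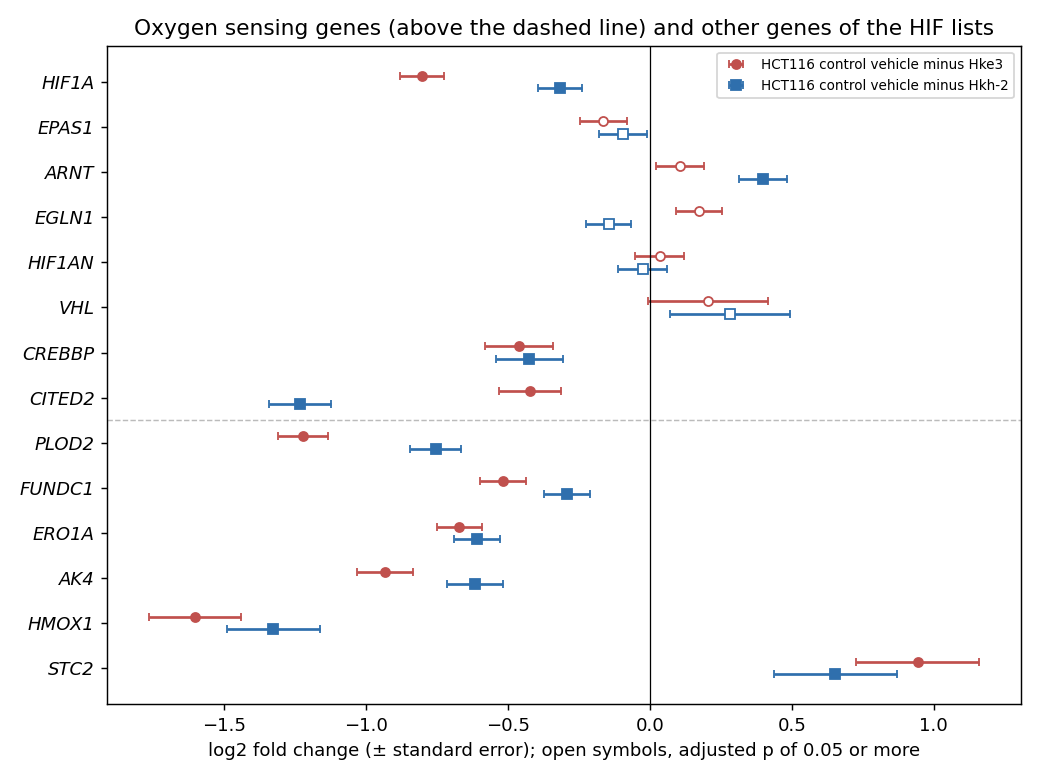
Log2 fold change (horizontal axis) of genes of the oxygen sensing list (above the dashed line) and of the lists of partners and other HIF targets (below it), for HCT116 vehicle minus Hke3 (red circles) and HCT116 vehicle minus Hkh-2 (blue squares). Bars are standard errors from limma, and open symbols did not pass an adjusted p of 0.05. HMOX1 and PLOD2 lie far to the left for both lines, STC2 to the right, and EPAS1, VHL, EGLN1 and HIF1AN have open symbols only.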

How the data were processed

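RNA of HCT116 control cells with doxycycline or vehicle, Hke3 and Hkh-2 was hybridised to Affymetrix arrays, 3 for each group. The deposited log2 values, 1 per probe set and array, were made by the authors with RMA per the submitters' processing notes. The arrays normalized together are not given in the sources used here. Gene symbols came from the platform annotation, leaving out the 1801 with several symbols and the 11777 with none, and 41043 of 41097 single-symbol probe sets were matched by gene ID to RefSeq (GRCh38.p14). A gene was its probe set with the highest mean, kept where at least 1 group mean was 6 or more. limma 3.58.1 (R 4.3.3) was fitted to 12 arrays with 4 group means, and Benjamini-Hochberg adjustment ran over the 12852 genes kept. The fit was also tested on simulated data. Precision is limited by the number of arrays.

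All members were named. In the other lists, genes were named where both lines differed in the same direction and the fold change nearer 0 was among the 4 largest of the list, beside HIF1A, EPAS1, ARNT, VHL, EGLN1, EGLN2 and HIF1AN. Receptors, partners and cell type markers given outside this rule were picked after their values were seen. The members and lists were chosen with earlier results of these data known. Replicate numbers pair the vehicle and doxycycline arrays, where deviations from the group mean over all genes gave r = 0.228, 0.212 and 0.453 for numbers 1, 2 and 3. Other groups share only numbers. Alternatives were other summaries of probe sets, other filters, median subtraction, cyclic loess, other fits, the replicate block, pooled HCT116 arrays, a log2 fold change threshold of 1.5 and leaving out each array. The doxycycline arrays in place of vehicle were added after seeing the data. Arrays of an inducible knockdown were not analysed here, and the gene targeted in the lines is not reported here.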

Additional observations from a re-analysis of the deposited data

Results flagged for a closer look

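The difference between HCT116 and a recombined line was not the same for both lines in 3 of the 9 hypoxia-inducible genes, by the test of Hke3 minus Hkh-2, which is the difference between both effects since they share the vehicle arrays. Over all genes tested, 16.3% were higher in Hke3 than in Hkh-2 and 23.5% lower, so that a difference of this kind was common. P4HA1 was 0.74 higher in Hke3 than in Hkh-2 (SE 0.13, adjusted p = 5.15e-04, limma), P4HA2 was 0.45 higher (SE 0.11, adjusted p = 0.00713), and DDIT4 was 0.95 higher (SE 0.13, adjusted p = 1.16e-04). Leaving out any 1 array kept these values between 0.61 and 0.86 for P4HA1, 0.38 and 0.53 for P4HA2, and 0.90 and 1.01 for DDIT4, all at an adjusted p under 0.05. The second P4HA2 probe set gave 0.57 (adjusted p = 0.00115).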

How the results depend on the processing

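Of 840 values of the 9 genes under 25 alternative settings, 812 kept their side of the threshold, 20 no longer passed and 8 newly passed. Of the 812, 782 kept their sign and 30 turned it, and these 30 missed the threshold in the fit to all arrays as well as in the alternative. Every loss among these values concerned the comparison of vehicle-treated HCT116 with Hkh-2, for BNIP3L, P4HA1 or NDRG1. Not counted here is EGLN3 where a group mean of 7 was required, since it was then not tested. That left 5 genes lower against Hke3, against Hkh-2 and against both. Of the 10324 genes in that fit, 2808 were lower against Hke3 and 2672 against Hkh-2. P4HA1 also fell short with the mean of its probe sets (-0.21, adjusted p = 0.0760), without a filter (-0.36, adjusted p = 0.0510) and with cyclic loess (-0.33, adjusted p = 0.0588), as did BNIP3L with cyclic loess (-0.22, adjusted p = 0.0616). The mean for P4HA1 takes in its probe set near background, at 2.74 to 2.81 in every group. Without a filter the P4HA1 fold change was unchanged, and the fit took in all 19775 genes. The cause of the other losses was not tested. NDRG1 newly passed between Hke3 and Hkh-2 in 5 settings, at 0.27 to 0.34.

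With only probe sets not marked as binding several transcripts, which leaves ADM, BNIP3, BNIP3L and P4HA2, those 4 genes were lower in both comparisons, while 0 were higher against Hke3, 0 against Hkh-2 and 0 against both, and 1 was higher in Hke3 than in Hkh-2. Of the 9718 genes in that fit, 2277 were lower and 2254 higher against Hke3. Against Hkh-2 these were 1994 and 1416, and 1705 were higher in Hke3 than in Hkh-2. At a log2 fold change past 1.5, 0 were higher and 1 lower against Hke3, 1 higher and 1 lower against Hkh-2, 0 higher and 1 lower against both, and 0 were higher between Hke3 and Hkh-2. The share over all genes at this threshold is not given here. Without both arrays that stood apart, 1 was higher against Hkh-2, and 5 between Hke3 and Hkh-2, where 2479 and 2946 of all 12854 genes were higher. With doxycycline in place of vehicle arrays, 1 was higher against Hkh-2, as were 1942 of all 12852 genes. Leaving out each array in turn gave 1 to 2 genes higher and 4 to 6 lower against Hkh-2, 1 higher and 6 lower against Hke3, and 3 to 4 higher between Hke3 and Hkh-2. Those fits tested 12840 to 12900 genes. Over all of these, 1445 to 2181 were higher and 2216 to 3243 lower against Hkh-2. Against Hke3, 2380 to 3903 were higher and 2608 to 3226 lower, and 1690 to 2542 were higher in Hke3 than in Hkh-2.

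With the replicate block over all 12 arrays, doxycycline against vehicle stayed at 0 calls, and 5 genes rather than 6 were lower against Hkh-2, P4HA1 being the one lost (adjusted p = 0.0613). Over all genes of this fit, 2686 of 12852 were lower against Hkh-2. Outside vehicle and doxycycline the arrays share only a number, and 6 of 12 arrays correlated best with an array of their own number. The block changed no other call of the 9 genes. EGLN3, at 6.14 to 6.20 in HCT116, lies nearest to background.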
